A study of Mus musculus with 4 samples.

Results

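The genes described here write, remove and read methyl groups on cytosine in DNA. They comprise the methyltransferases Dnmt1, Dnmt3a and Dnmt3b, the TET enzymes Tet1, Tet2 and Tet3, the glycosylase Tdg, and the readers Uhrf1 and Mbd2. Each was followed in the liver of 4 male aP2-SREBP-1c mice, aged 24 weeks, which formed the 1 group analysed here. A gene was represented by the probe set that carried its symbol and no other symbol, and by the one with the highest mean over the 4 arrays where there were several. By this rule 8 of the 9 genes were measured, among 19938 genes in all. The exception was Tdg, whose 4 probe sets were all annotated also to the pseudogene Tdg-ps2, so that no level can be given for it.

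In aP2-SREBP-1c mice the promoter of aP2 (Fabp4), active in adipocytes, drives the transcriptionally active N-terminal part of human SREBP-1c. These animals lack much of their white fat, store large amounts of lipid in the liver and are systemically insulin resistant. RNA of each liver was hybridised to 1 Mouse Gene 1.0 ST array. C57Bl6 and alb-SREBP-1c arrays were not analysed here, so the values describe levels and the spread between mice and not a change caused by the transgene.

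Methyl groups sit in mammals mostly on the cytosine of CG dinucleotides (CpG). De novo methyltransferases place them, and at replication the maintenance enzyme copies them to the new strand after the reader UHRF1 has bound the hemimethylated site. TET dioxygenases, which use 2-oxoglutarate and oxygen, oxidise 5-methylcytosine stepwise, and TDG excises the more oxidised bases, which base excision repair then replaces with cytosine. MBD2 binds methylated CpG and joins the NuRD complex, which deacetylates histones and remodels nucleosomes. In the study, the methylation of the Igfbp2 promoter was assayed in hepatocytes of such mice, and methyltransferase activity in whole-cell lysates of them. That activity is a total of the lysate and was not assigned to single enzymes described here. Those assays measure activity and DNA, whereas the arrays measured transcripts.

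Of 9 genes, 8 had 13 RefSeq start site windows of 250 bases (build GRCm38.p6). Because CpG is both the substrate of these enzymes and a feature of their own promoters, 3 upstream sequences are shown, for the maintenance pair Dnmt1 and Uhrf1 and for the de novo enzyme Dnmt3b. They are written 5′ to 3′ on the strand of the gene, end just before the first base that RefSeq counts to the gene, and carry each CG in capitals. The Dnmt1 sequence is chr9:20959889-20960138 on the minus strand with 2 CpGs, that of Uhrf1 is chr17:56303087-56303336 on the plus strand with 10 CpGs, and that of Dnmt3b is chr2:153649199-153649410 on the plus strand with 16 CpGs. The full 250-base window of Dnmt3b runs on to the start of the listed transcript, at position 153649449, and held 21 CpGs, and its last bases are left out here because they lie within the annotated gene.
Dnmt1: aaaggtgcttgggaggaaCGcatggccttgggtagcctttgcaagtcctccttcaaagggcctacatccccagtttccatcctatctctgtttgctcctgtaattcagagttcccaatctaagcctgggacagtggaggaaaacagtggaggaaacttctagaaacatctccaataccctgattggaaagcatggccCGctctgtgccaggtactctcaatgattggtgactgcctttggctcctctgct
Uhrf1: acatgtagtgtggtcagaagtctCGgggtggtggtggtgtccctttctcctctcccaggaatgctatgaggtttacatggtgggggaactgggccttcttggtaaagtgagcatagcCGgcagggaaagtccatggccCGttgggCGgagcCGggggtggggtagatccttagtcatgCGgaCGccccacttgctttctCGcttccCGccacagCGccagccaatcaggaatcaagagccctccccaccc
Dnmt3b: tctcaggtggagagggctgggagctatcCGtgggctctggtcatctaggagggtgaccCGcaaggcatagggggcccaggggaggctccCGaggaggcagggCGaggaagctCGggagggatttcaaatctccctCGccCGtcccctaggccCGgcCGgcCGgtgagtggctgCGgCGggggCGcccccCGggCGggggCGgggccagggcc
RefSeq gives Dnmt1 and Uhrf1 further start sites, and their windows held 7 and 26 CpGs at Dnmt1 and 30 CpGs at Uhrf1. The arrays do not tell which start a liver transcript used. Dnmt3a had windows with 15, 38 and 40 CpGs, of which the last 2 overlap. The Tet2 window held 51 CpGs, a count that 0.067% of 32851 windows reached. Tet1, Tet3 and Tdg had 15, 17 and 19 CpGs in their windows. Among the 13 windows, 12 lay above the median of all windows, which was 6 CpGs (quartiles 2 and 16). Some windows of inner start sites lie within the gene. The letters GGGCGG, searched on both strands, were in 10 of the 13 windows, against 32.7% of all windows, and contain a CpG themselves. CCAAT was in 6 of 13 windows, against 33.8% of all. The E2F-type words TTTCCCGC and TTTGGCGC were in 0 of 13, against 0.895% and 0.417% of all windows. A match is a description of letters and not a bound site.

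**Figure D1:**
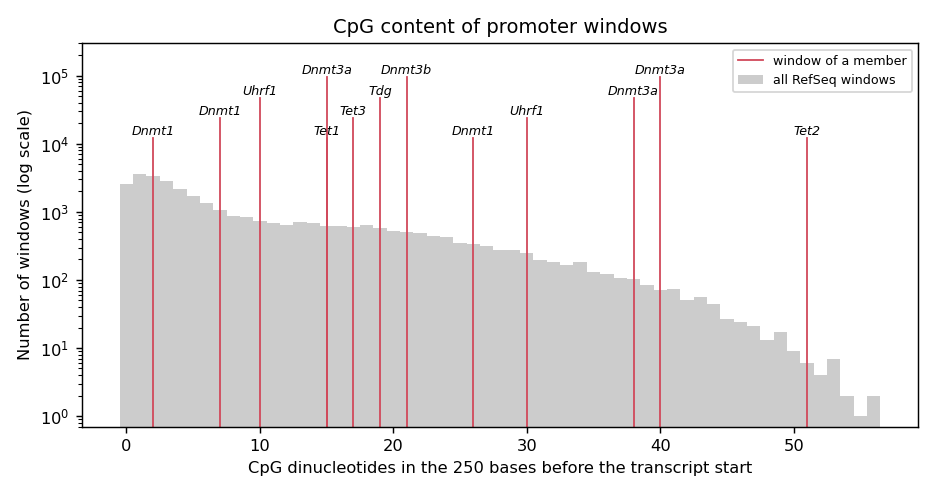
CpG dinucleotides in the 250 bases before the RefSeq transcript start (x axis), as the number of windows with that count on a log scale (y axis, grey bars, 32851 windows). Red lines mark the 13 windows of 8 genes, with heights that carry no value, from 2 CpGs at the outermost start of Dnmt1 to 51 at Tet2.

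All expression values below are on the log2 RMA scale, on which a difference of 1 is a 2-fold difference, and levels of different probe sets are not comparable with each other. Background was taken from 1212 probe sets of odorant and pheromone receptors, and the 95th percentile of their values on an array was its limit: 5.52, 5.35, 5.34 and 5.33 in mice 1 to 4. Above the limit on all 4 arrays were 6 of the 8 measured genes, against 61.5% of all 19938 genes: Dnmt1, Dnmt3a, Dnmt3b, Tet2, Tet3 and Mbd2. Tested with limma, the value minus limit was above 0 for the same 6 genes, at an adjusted p of 0.000577 for Dnmt3b, the highest of the 6, and this test called 61.3% of all genes. Uhrf1 and Tet1 straddled the limit. The liver mixes cell types, and fewer cells of a type cannot be told apart from less RNA per cell. Array 1 had a compressed scale: against the other mice, its median difference was 0.13 among the dimmest class of genes and -0.23 among the brightest, of 10 classes. Correlations between arrays over all genes above background were 0.974 to 0.993, the lowest with mouse 1.

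**Figure D2:**
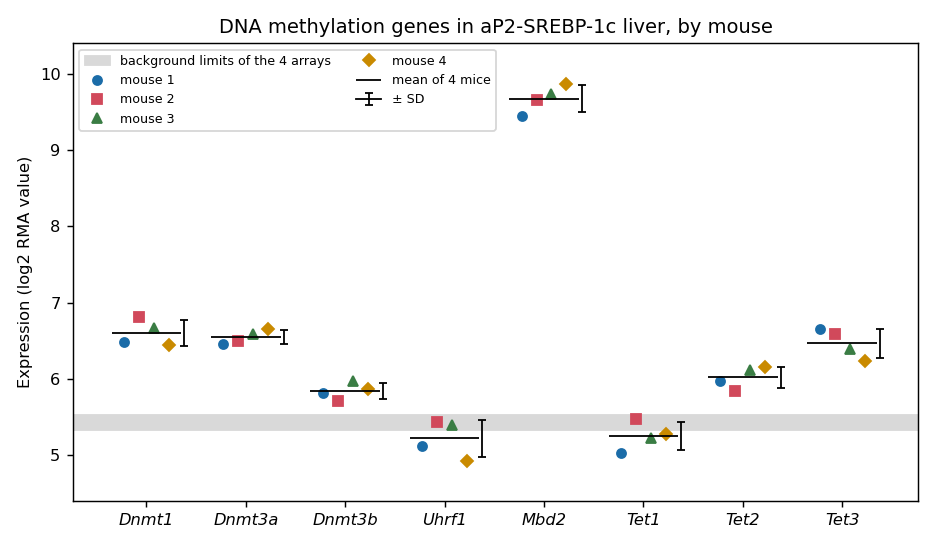
Expression of the 8 measured genes (x axis) as log2 RMA values (y axis), with a symbol for each of the 4 mice, the mean as a line and the SD as a bar; the grey band spans the 4 background limits. Uhrf1 and Tet1 cross the band, the other 6 genes lie above it, and heights of different genes are not comparable.

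Dnmt1, the maintenance methyltransferase, was present in all 4 livers, with its highest mouse 1.29-fold above its lowest. Its values were 6.49, 6.81, 6.67 and 6.44 in mice 1 to 4, a mean of 6.60 ± 0.17 (SD, n = 4 mice, 95% confidence interval 6.42 to 6.79). Mice 2 and 3 were thus high and mice 1 and 4 low. The mean lay 1.21 above the limit (95% confidence interval 0.99 to 1.44). Of all genes above background, 41.0% had an SD at least as large.

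Dnmt3a, a de novo methyltransferase that also acts in tissues that no longer divide, varied least of the 6 genes. It had 6.45, 6.50, 6.59 and 6.65 in mice 1 to 4, a mean of 6.55 ± 0.09 (SD, n = 4 mice, 95% confidence interval 6.39 to 6.71). The extremes were 1.15-fold apart, with mouse 1 lowest and mouse 4 highest. An SD of this size or more was found in 82.3% of genes, and the mean lay 1.16 above the limit (95% confidence interval 0.95 to 1.37).

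Dnmt3b, the de novo enzyme known best from embryonic cells, lay close to the limit. Its values were 5.82, 5.71, 5.97 and 5.87 in mice 1 to 4, a mean of 5.84 ± 0.11 (SD, n = 4 mice, 95% confidence interval 5.68 to 6.01). Mouse 2 was lowest and mouse 3 highest, by 1.20-fold. The mean was 0.45 above the limit (95% confidence interval 0.24 to 0.66). With the limit at the 99th percentile of receptor probe sets (6.05, 6.01, 6.03 and 6.07), Dnmt3b was above it on 0 of 4 arrays. The 3 methyltransferases had 3 different orders over the mice. Median centring also exchanged the places of the neighbours mice 1 and 2 for Dnmt3a and of mice 1 and 4 for Dnmt3b.

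Uhrf1, which brings the maintenance enzyme to hemimethylated CpG, was above the limit in mice 2 and 3 and below it in mice 1 and 4. It measured 5.11, 5.44, 5.40 and 4.92 in mice 1 to 4, with a mean of 5.22 ± 0.24 (SD, n = 4 mice). The mean minus the limit was -0.17 (95% confidence interval -0.41 to 0.07, adjusted p = 0.167 by limma). Its values in mice 1 and 4 are therefore readings at background, and no order over the mice is read from them.

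Dnmt1 differed from the mean of the other mice by -0.15, 0.28, 0.09 and -0.22 in mice 1 to 4. Of 13 measured pancreatic acinar enzyme transcripts, 12 were above background, against 61.5% of all genes. Of the 12, 11 differed by more than 1.5-fold, against 12.9% of all genes above background. Their median differences were 1.27, -1.41, -1.04 and 1.09 in mice 1 to 4, so the medians were high in the mice in which Dnmt1 was low. Medians of the marker lists of stellate cells (8 of 8 above background; -0.31, 0.36, 0.15 and -0.18), hepatocytes (8 of 8; -0.07, 0.05, 0.06 and -0.02) and cholangiocytes (3 of 4; -0.09, 0.16, 0.16 and -0.11) had the sign of Dnmt1 in every mouse. Some of their members did not, such as Des (0.21 in mouse 1), Sox9 (-0.14 in mouse 2) and Cps1 (0.11 in mouse 4). The lymphocyte list (3 of 8; 0.06, -0.07, -0.001 and 0.11) had the opposite sign in every mouse. The remaining marker lists had the sign of Dnmt1 in some mice only. They were Kupffer cells and macrophages (-0.11, -0.04, 0.04 and 0.15), sinusoidal endothelial cells (-0.24, 0.04, 0.11 and 0.12) and adipocytes (0.60, 0.10, -0.37 and -0.32). All genes above background had -0.08, 0.03, 0.05 and 0.02, the sign of Dnmt1 in mice 1 to 3. The part of any of these in the values of Dnmt1 was not tested.

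Mbd2, which binds methylated CpG, lay far above the limits in every liver, by 4.29 on average (95% confidence interval 4.05 to 4.52). Its values were 9.45, 9.65, 9.73 and 9.87 in mice 1 to 4, a mean of 9.68 ± 0.17 (SD, n = 4 mice, 95% confidence interval 9.49 to 9.86). Mouse 1 was lowest and mouse 4 highest, by 1.33-fold, and 39.9% of genes had an SD at least as large. Mouse 1 differed from the other mice by -0.30 at Mbd2, and the 632 genes whose mean lay within 0.5 of that of Mbd2 had a median difference of -0.25 on the same array. After quantile normalization the values were 9.61, 9.62, 9.63 and 9.84, so that mouse 1 lay -0.09 from the others while mouse 4 stayed highest, at 0.21. The SD of Mbd2 was then 0.107, and it was 0.101 after cyclic loess and 0.108 without mouse 1.

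Tet1, which is prominent in embryonic stem cells, was not separable from background. Its probe set 10369690 had 5.03, 5.47, 5.22 and 5.27 in mice 1 to 4, with a mean of 5.25 ± 0.18 (SD, n = 4 mice). Only mouse 2 exceeded its limit. The mean minus the limit was -0.14 (95% confidence interval -0.38 to 0.09, adjusted p = 0.235 by limma). Probe set 10369702 had 4.60, 5.68, 5.24 and 5.31, again highest in mouse 2, whereas 10369688 had 4.91, 4.87, 4.50 and 4.45 and was above the limit on 0 arrays.

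Tet2, the TET enzyme often mutated in blood cancers, was above the limit in every liver. It measured 5.97, 5.84, 6.11 and 6.15 in mice 1 to 4, a mean of 6.02 ± 0.14 (SD, n = 4 mice, 95% confidence interval 5.84 to 6.19). Mouse 2 was lowest and mouse 4 highest, by 1.24-fold, and 55.7% of genes had an SD at least as large. The mean lay 0.63 above the limit (95% confidence interval 0.41 to 0.85), and 2 of 4 arrays were above the 99th percentile limit.

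Tet3, the TET enzyme that oxidises the paternal genome in the zygote, varied most of the 6 genes. Its values were 6.65, 6.59, 6.39 and 6.23 in mice 1 to 4, a mean of 6.46 ± 0.19 (SD, n = 4 mice, 95% confidence interval 6.27 to 6.66). Mice 1 and 2 were high and mouse 4 low, with a range of 1.34-fold, and 32.3% of genes had an SD at least as large. The mean lay 1.08 above the limit (95% confidence interval 0.87 to 1.29). The order held after median centring, quantile normalization and cyclic loess. It was not that of the other Tet3 probe set, 10545682, which had 6.31, 6.11, 6.19 and 6.30, with mice 1 and 4 high. The SD of the mean of both probe sets was 0.096. Closest to the chosen Tet3 probe set in centred values over the 4 mice, of 12265 genes, were 4930563E22Rik (Euclidean distance 0.0203), Kcnn1 (0.0204), a calcium-activated potassium channel, and Magef1 (0.0275).

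**Figure D3:**
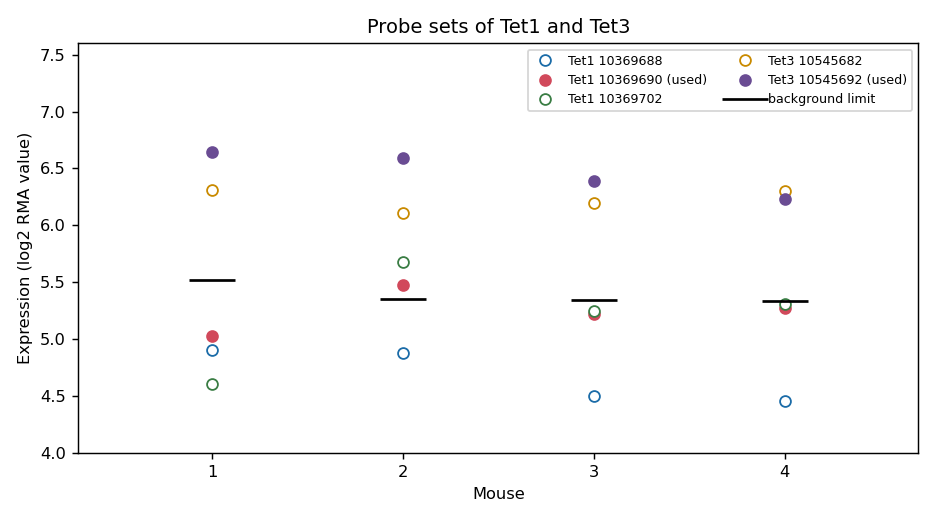
Probe sets of Tet1 and Tet3 in each mouse (x axis) as log2 RMA values (y axis); filled circles are the probe sets used, open circles the others, and black lines the background limits. Mouse 4 has the lowest value of the Tet3 probe set used, 6.23, but not of the other one, 6.30, and the Tet1 probe sets lie around or below the limits.

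None of the 6 genes above background differed by more than 1.5-fold between its highest and lowest mouse, that is 0 of 6, against 12.9% of 12265 genes. A ratio above 5 to 4 between the highest and the lowest mouse was found for 3 of 6, Dnmt1, Tet3 and Mbd2, against 54.2% of all genes. Which genes passed depended on the processing: after quantile normalization and cyclic loess Mbd2 had 1.17-fold and 1.16-fold and no longer passed, and Tet2 did, with 1.26-fold and 1.27-fold. With the mean of both probe sets Tet3 had 1.16-fold. Without mouse 4, 0 of the 6 passed, without mouse 1 only Dnmt1 and Tet3 did, and without mouse 2 only Tet3 and Mbd2. The median SD was 0.157 over the 6 genes and 0.153 over all genes above background, so the spread of these genes between mice was near that of genes in general.

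**Figure D4:**
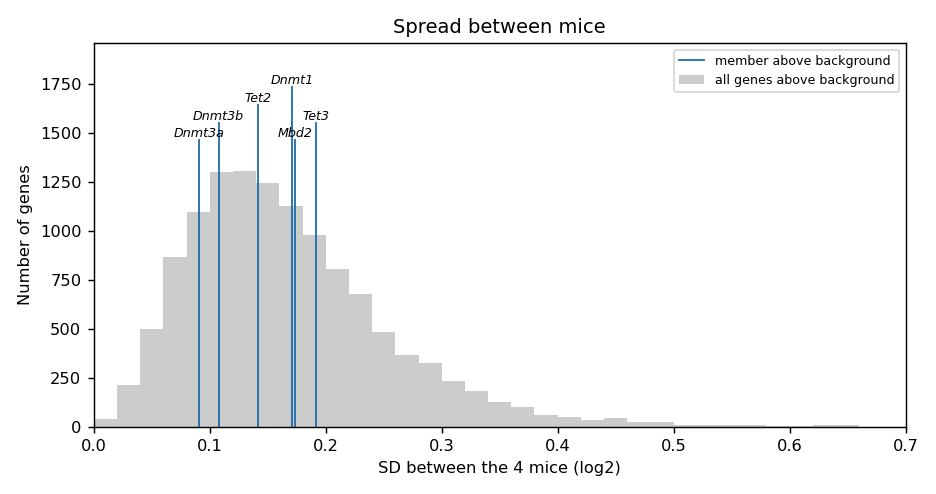
SD between the 4 mice on the log2 scale (x axis) as the number of the 12265 genes above background in each bin (y axis, grey bars), drawn up to 0.7, with lines for the 6 genes. Line heights carry no value; the lines run from 0.09 at Dnmt3a to 0.19 at Tet3, within the bulk of the genes.

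By role, the 3 methyltransferases had median differences of -0.13, -0.07, 0.09 and 0.03 in mice 1 to 4. In the deposited values, the probe sets used for Tet2 and Tet3 ran opposite ways in each mouse, -0.06 and 0.24 in mouse 1, -0.24 and 0.17 in mouse 2, 0.12 and -0.10 in mouse 3 and 0.18 and -0.32 in mouse 4. After median centring they had the same sign in mouse 1, at 0.01 for Tet2 and 0.32 for Tet3. The other Tet3 probe set ran opposite to Tet2 only in mice 1 and 3, where it was highest and low. In mouse 2 it was lowest and in mouse 4 high, as Tet2 was. The joint medians of Tet2 and the Tet3 probe set used were near 0, at 0.09, -0.04, 0.01 and -0.07. All 6 genes together had -0.10, -0.05, 0.08 and 0.09, against -0.08, 0.03, 0.05 and 0.02 for all genes above background. No mouse was thus high or low in every gene: mouse 4 had the highest value of Dnmt3a, Tet2 and Mbd2 and the lowest of Dnmt1 and of the Tet3 probe set used.

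**Figure D5:**
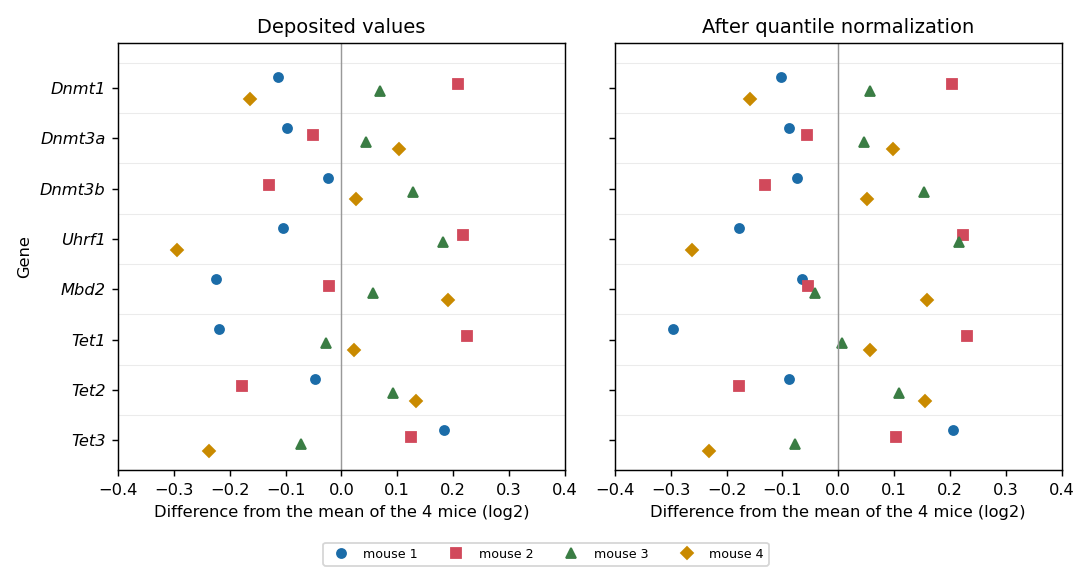
Difference of each mouse from the mean of the 4 mice (x axis, log2) for the 8 measured genes (y axis), in the deposited values (left) and after quantile normalization (right). Mouse 1 at Mbd2 moves towards the others on the right, while mouse 4 at Tet3 and mouse 2 at Dnmt1 keep their places at the ends.

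Among 20 measured further genes of DNA methylation, 15 were above background, against 61.5% of all genes. Of the 15, 1 differed by more than 1.5-fold, against 12.9% of all genes above background. The median SD was 0.11. Gadd45g, a stress-inducible gene linked to demethylation, had 7.11, 6.11, 6.23 and 6.48 in mice 1 to 4, with mouse 1 highest by 2.01-fold. Gadd45a, of the same family, had 8.07, 7.70, 7.52 and 7.91, with mice 1 and 4 high. Cxxc1, which binds unmethylated CpG, had 7.21, 7.43, 7.47 and 6.99, with mouse 4 lowest. Not above the limit on all arrays were Dnmt3l, the cofactor of the de novo enzymes in germ cells, Mbd4, a mismatch glycosylase, the remodeller Hells, Dppa3, which protects the maternal genome, and Cxxc4.

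The list of base excision repair, which acts after TDG, had 11 of 14 measured genes above background (61.5% of all genes) and a median SD of 0.050. Of the 11, 0 differed by more than 1.5-fold, against 12.9% of all genes above background. The largest SDs were those of the glycosylases Ogg1 and Neil1 and of Apex1, which cuts at abasic sites. Apex1 had 7.73, 7.78, 8.02 and 8.05 in mice 1 to 4, with mice 3 and 4 high. Smug1, Neil2 and Neil3 were not above the limit on all arrays.

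The NuRD complex, which MBD2 recruits, had all 13 measured genes above background, against 61.5% of all genes. Of the 13, 2 differed by more than 1.5-fold, against 12.9% of all genes above background. Mta3 had 7.14, 7.93, 7.84 and 7.73 in mice 1 to 4, a 1.72-fold range, and Mta2 had 7.34, 7.93, 7.96 and 7.64, a 1.53-fold range. Hdac2, a catalytic subunit, had 7.19, 7.65, 7.75 and 7.68. All 3 were lowest in mouse 1, as Mbd2 was, and differed there from the other mice by -0.69, -0.50 and -0.50. The median difference of the list in mouse 1 was -0.15, and Chd3, Hdac1, Rbbp4 and Gatad2a lay slightly above 0. The part of the compressed scale of array 1 in these values was not tested.

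Genes that make or consume 2-oxoglutarate, the cosubstrate of TET enzymes, or handle its competitors succinate, fumarate and 2-hydroxyglutarate were above background in 13 of 13 measured. In this list 1 gene passed 1.5-fold, the isocitrate dehydrogenase subunit Idh3a, with 7.50, 8.20, 8.19 and 7.97 in mice 1 to 4. The shares over all genes were 61.5% above background and, of these, 12.9% past 1.5-fold. Idh3b and Glud1, which makes 2-oxoglutarate from glutamate, had ranges of 1.44-fold and 1.43-fold and were also lowest in mouse 1. The median difference of the list in mouse 1 was -0.23. Among the brightest class of all genes, the median difference on array 1 was also -0.23. The part of the compressed scale of array 1 in these values was not tested.

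Histone modifiers tied to DNA methylation were above background in 17 of 18 measured genes, with the exception of the H3K9 methyltransferase Suv39h2, and 1 of the 17 passed 1.5-fold. Over all genes, 61.5% were above background and 12.9% of these passed 1.5-fold. Eed, a core subunit of PRC2, had 6.11, 6.64, 6.88 and 6.78 in mice 1 to 4, a 1.71-fold range with mouse 1 lowest. Ehmt1 and Ezh1, histone methyltransferases, had ranges of 1.43-fold and 1.42-fold.

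S phase and mitosis genes, whose transcripts mark the division in which maintenance methylation takes place, were above background in 15 of 21 measured genes, against 61.5% of all genes. Of the 15, 1, Cdk1, passed 1.5-fold, against 12.9% of all genes above background. Cdk1, the mitotic kinase, had 6.29, 6.11, 5.63 and 5.56 in mice 1 to 4, with mice 1 and 2 high. Mcm3, of the replicative helicase, and Ccnb2, a mitotic cyclin, had ranges of 1.48-fold and 1.42-fold. The lowest values were close to the limit, with Mcm3 at 5.42 in mouse 4 (limit 5.33) and Ccnb2 at 5.70 in mouse 1 (limit 5.52). Cdk1 in mice 3 and 4 was below the 99th percentile limits of 6.03 and 6.07. Top2a, Ccna2, Ccne2, Birc5, Cdc6 and Gins1 were not above the limit on all arrays. The median differences of the list were 0.09, 0.10, -0.03 and -0.10 in mice 1 to 4, with the sign of Dnmt1 in mice 2 and 4 and the opposite sign in mice 1 and 3.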

How the data were processed

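Liver RNA (150 ng per mouse) of 4 male aP2-SREBP-1c mice was measured on 1 Mouse Gene 1.0 ST array each. The deposited values are log2 RMA values made by the authors (Affymetrix Expression Console and RMA per the submitters' processing notes; versions are not given in the sources used here). RMA corrects background, equalises the distributions of arrays and summarises probes, so small differences can be compressed, and which arrays were normalized together is not stated. All columns had a sample (0 without).

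Of 35556 probe sets, 21789 had 1 gene symbol, 1621 several and 12146 none. Members and lists were chosen with earlier results of these data known. Named are all members, per list the 3 genes above background with the largest SD and all genes not above it, and the 3 genes nearest to the member with the largest SD. One-group fits used limma 3.58.1 in R 4.3.3, across the genes above background for levels and across all genes for the value minus limit, with Benjamini-Hochberg adjustment at 0.05, and all other values and the plots came from pandas 2.3.3, numpy 2.4.6, matplotlib 3.10.9 and scipy 1.17.1 under Python 3.11.15. The labels do not exclude technical sharing between the mice, so intervals describe the mean of these samples only, and 4 arrays limit the precision. The spread behind each interval is drawn by limma towards that of the other genes, so an interval is not the spread of a gene between mice. Between pairs of arrays, 1 to 25 probe sets had identical values, so no array was a copy of another. Alternatives were other background percentiles (90 and 99), the mean over arrays against the mean limit, no filter on low values, other fold thresholds (a ratio of 5 to 4, and 2-fold), median centring, quantile normalization, cyclic loess, the mean of all probe sets, all measured members, and each mouse left out. The scripts were tested on simulated data. Promoter sequences are from RefSeq.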

Additional observations from a re-analysis of the deposited data

Results flagged for a closer look

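No measured gene among the methyltransferases, TET enzymes and readers had a single mouse standing apart from the other 3 (by its gap to the nearest mouse over the range of the 4, judged with the 95% critical value of Dixon), in 0 of 8 examined. Of 33 named list genes, 4 had one, in every case mouse 1: the gap was a fraction of 0.971 of the range at Cxxc4, 0.915 at Neil1, 0.877 at Neil2 and 0.832 at Hdac2. Mouse 1 was high for Cxxc4 and Neil1 and low for Neil2 and Hdac2, and Cxxc4 and Neil2 were not above the background limit on all arrays. Chance gives about 1 in 20 such cases among genes not picked by their values. The 33 list genes were picked for a large SD or for not being above background, so their count cannot be judged against that share. Of all 12265 genes above background 5.75% had such a mouse, and in 62.6% of these it was mouse 1, whose array had the compressed scale.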

How the results depend on the processing

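With a ratio of 5 to 4 in place of 1.5-fold, 3 genes differed between mice instead of 0. This count, in checks chosen after seeing the data, was 3 under every scaling, 2 with the mean of all probe sets, and 0 (without mouse 4) to 3 (without mouse 3) with 1 mouse left out. The median SD of the 6 genes ranged from 0.113, without mouse 2, to 0.179, without mouse 3. The other 27 of 29 summary values were labelled unchanged. For counts this meant equal or within 1.5 times, and for the median SD within a standard error from leaving out each mouse in turn. Some of these values could not have changed for the worse. With 0 genes past 1.5-fold, the count past 2-fold had to be 0. Leaving out a mouse cannot widen a range or lower the count above background. The standard error also came from the same values, with each mouse left out, that it judged. The count of genes above background fell from 6 to 4 with the 99th percentile limit, which is just at the edge of 1.5 times. Dnmt3b and Tet2 were then lost. Of 64 levels, 63 stayed within 1 SD, and Tet1 moved to 5.05 with the mean of its probe sets. Many of these levels could not have moved. Leaving out 1 of 4 mice cannot shift a mean by 1 SD, and median centring keeps the mean of each gene. For genes with 1 probe set, the mean of all probe sets changes neither the level nor the SD. Of 64 SDs, 60 stayed within 1.5 times, and the 4 others were Tet3 with the mean of its probe sets (0.096) and Mbd2 after quantile normalization (0.107), after cyclic loess (0.101) and without mouse 1 (0.108). Of 48 differences by role and mouse, 44 stayed within the median SD of the genes. Mbd2 in mouse 1 moved to -0.086 after quantile normalization and -0.088 after cyclic loess, and with all measured genes, which adds Tet1 and Uhrf1, the TET enzymes had 0.17 in mouse 2 and the readers -0.069 in mouse 4. The cause was not tested, apart from what the settings do by construction. Signal over background limits Dnmt3b and Tet2, and the levels of Uhrf1 and Tet1 cannot be told from background. No paired analysis was possible because only 1 group of 4 mice was studied.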

Other observations

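Markers of Kupffer cells and macrophages (8 of 8 measured above background) had a median difference, each mouse against the rest, of -0.11, -0.04, 0.04 and 0.15 in mice 1 to 4, with Marco (0.70, -0.29, -0.53 and 0.12) and Clec4f (0.24, -0.15, -0.26 and 0.17) among those that went another way, and those of sinusoidal endothelial cells (7 of 7) had -0.24, 0.04, 0.11 and 0.12. Lymphocyte markers were above background in 3 of 8 and adipocyte markers in 2 of 4, with Adipoq and Lep not above it. Over all genes the share above background was 61.5%.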
